A study of Mus musculus with 15 samples.

Results

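The TNF superfamily was examined as the set of genes whose symbols begin with Tnfsf or Tnfrsf and a number, together with Tnf, Lta, Ltb, Ltbr, Fas, Fasl, Cd40, Cd40lg and Cd70. The rule found 40 genes, 23 receptors and 17 ligands, among the 23329 genes counted, by symbol alone. RNA sequencing of poly(A) RNA had been carried out on 15 mouse tumors, 1 tumor per mouse. The lymphomas came from the cervical lymph nodes of C57BL/6 mice and comprised 4 EμMyc tumors with wild-type Casp2 (onset at 13 to 19 weeks) and 3 EμMyc/Casp2-/- tumors (8 to 12 weeks). The neuroblastomas were paraspinal thoracic tumors of Sv129/C57BL6 mice and comprised 4 Th-MYCN tumors with wild-type Casp2 (10 to 21 weeks) and 4 Th-MYCN/Casp2-/- tumors (15 to 24 weeks). The Eμ enhancer of the immunoglobulin heavy chain locus places the Myc transgene in B-lineage cells, whereas the Th promoter, from the gene for tyrosine hydroxylase, places MYCN in sympathetic neuroblasts. The study asked how loss of caspase-2 (Casp2) alters the tumor transcriptome. Strain, tissue and transgene differed together between the tumor types and cannot be told apart.

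TNF superfamily ligands are mostly trimeric proteins of the cell surface, some of which are shed, and they act by clustering their receptors. Receptors with a cytoplasmic death domain, such as Fas and TNFR1, can recruit adaptors that activate caspase-8 or, where caspase-8 is blocked, the kinase RIPK3. Receptors without a death domain bind TRAF adaptors and signal to NF-κB, and in B cells the BAFF receptor, TACI and CD40 sustain survival and drive activation. Decoy receptors bind ligand without signaling for death.

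The column of counts used here held between 4940464 and 17638029 reads assigned to genes per tumor, with EuMycC2ko215 the shallowest. It held between 48.8% and 49.3% of the reads assigned on either strand, so it contained about equal parts of both strands' reads, and sense and antisense transcripts could not be told apart. Levels are given as CPM, counts scaled to library size after TMM normalization. A floor of 3 reads corresponded to between 0.173 and 0.586 CPM and covers counting error only. The 10 B cell markers summed to between 2268 and 4982 CPM in the lymphomas and to between 11.7 and 27.2 CPM in the neuroblastomas, where Pax5, which defines the lineage, was at 0 reads in 6 of 8 tumors. The 9 sympathetic neuroblast markers summed to between 3376 and 5864 CPM in the neuroblastomas and to at most 23.6 CPM in the lymphomas. EuMycC2ko215 stood apart: its 12 T cell markers summed to 1971 CPM against 136 to 345 CPM in the other 6 lymphomas, and its 9 macrophage markers, at 1704 CPM, were also the highest. It was the lymphoma with the highest value for 12 of the 29 members tested (41.4%) and for 25.5% of all genes tested. Values without it are given beside several of the results it touches. Casp2 itself averaged 159 ± 34.2 CPM (SD, n = 4) in EμMyc and 62.0 ± 12.6 CPM (n = 3) in EμMyc/Casp2-/- tumors, with no overlap, and 100 ± 20.9 CPM and 58.0 ± 16.7 CPM (n = 4 each) in Th-MYCN and Th-MYCN/Casp2-/- tumors, whose ranges overlapped. The log2 fold changes were -1.35 ± 0.25 (FDR 0.054) and -0.79 ± 0.23 (FDR 0.33) by edgeR's quasi-likelihood test. That test, the main one below, thus left Casp2 itself above an FDR of 0.05 in both tumor types. The likelihood ratio test gave FDR values of 0.00040 and 0.10. A gene that the quasi-likelihood test did not call for loss of Casp2 was therefore not shown to be unchanged. Since reads were summed over all exons, it is not known whether any came from the deleted ones, and the counts check the labels only in part. The study reports that it checked the deletion in all tumors by genotyping and immunoblotting.

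Of the 40 members, 29 exceeded 1 CPM in at least 3 tumors and entered the tests. Of these, 15 passed only through the lymphomas, as did 803 of all 14880 genes tested, and none passed only through the neuroblastomas. A member that passed only where it was high had to differ, so the counts of members called between tumor types below are descriptions. The 11 members not tested were mostly ligands: Fasl, Tnfsf15, Tnfsf4, Tnfsf8, Tnfsf13, Tnfsf18, Cd40lg and Cd70, with the receptors Tnfrsf8, Tnfrsf11b and Tnfrsf17. Cd70, the ligand of CD27, had 1 read in all 15 tumors together. Cd40lg, the ligand of CD40 carried by activated T cells, had between 0 and 4 reads per lymphoma, 0 of them in EuMycC2ko215, and 0 reads in all 8 neuroblastomas. Tnfsf18 reached 31 reads in EuMyc835 and Tnfsf8 26 reads in EuMyc743b, and neither exceeded 4 reads in a neuroblastoma.

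**Figure D1:**
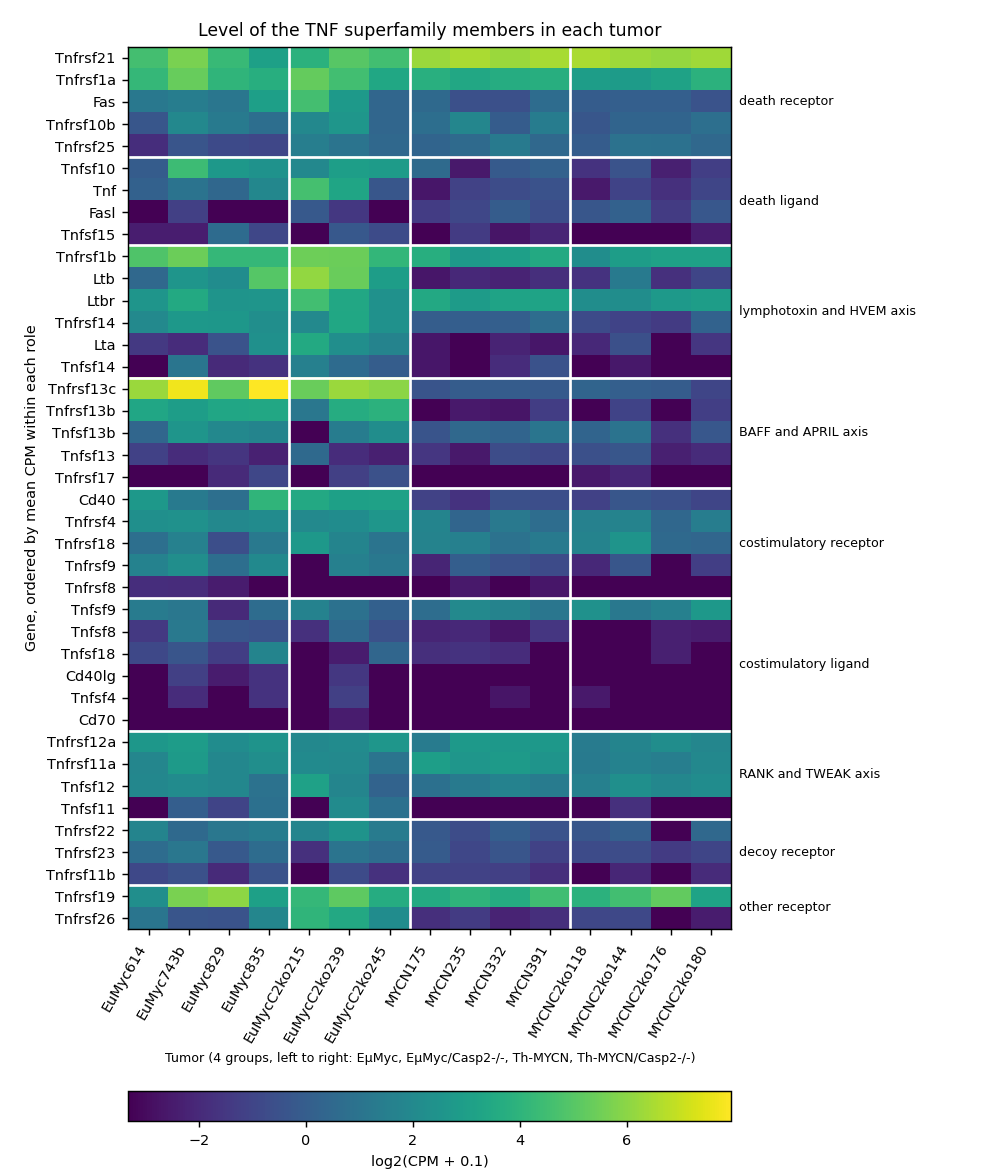
Level of each of the 40 members in each of the 15 tumors as log2(CPM + 0.1), with genes grouped by role and tumors grouped by tumor type and genotype. Tnfrsf13c stood out in the lymphomas (36.6 to 248 CPM) and Tnfrsf21 in the neuroblastomas (72.9 to 91.8 CPM), and most costimulatory ligands were near 0 throughout.

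Upstream sequences of 6 members are shown: the neighboring ligand genes Ltb, Tnf and Lta, which were higher in lymphomas, and Fas, Tnfrsf13c and Tnfrsf21. Tnfrsf13c and Tnfrsf21 are the receptors with the highest level in lymphomas and in neuroblastomas. Of the 6, only Ltb and Fas carry a match to a motif described below. The sequences are the 250 bases before the start given by RefSeq for GRCm38.p6, written 5′ to 3′ on the strand of the gene. For Ltb, 68 bases were left off because the GENCODE transcript starts earlier. Capitals mark matches to an NF-κB motif, GGGA and TTCC separated by any 2 bases, or the E-box CACGTG, the motif bound by MYC and MYCN, on either strand.
Ltb (chr17:35194257-35194438, + strand): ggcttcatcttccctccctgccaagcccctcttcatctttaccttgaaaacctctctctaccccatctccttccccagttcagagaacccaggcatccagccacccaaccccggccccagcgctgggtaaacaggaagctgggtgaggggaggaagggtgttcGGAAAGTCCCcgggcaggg
Tnf (chr17:35202008-35202257, - strand): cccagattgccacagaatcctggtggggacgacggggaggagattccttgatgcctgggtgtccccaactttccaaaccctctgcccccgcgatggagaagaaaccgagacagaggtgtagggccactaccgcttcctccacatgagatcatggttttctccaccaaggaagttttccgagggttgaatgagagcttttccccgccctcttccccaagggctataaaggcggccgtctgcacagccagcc
Lta (chr17:35205352-35205601, - strand): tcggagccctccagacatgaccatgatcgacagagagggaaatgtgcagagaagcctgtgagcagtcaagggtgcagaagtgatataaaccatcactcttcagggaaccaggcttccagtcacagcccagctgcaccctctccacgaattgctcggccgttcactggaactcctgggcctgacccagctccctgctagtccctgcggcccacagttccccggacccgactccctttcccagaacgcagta
Fas (chr19:34290409-34290658, + strand): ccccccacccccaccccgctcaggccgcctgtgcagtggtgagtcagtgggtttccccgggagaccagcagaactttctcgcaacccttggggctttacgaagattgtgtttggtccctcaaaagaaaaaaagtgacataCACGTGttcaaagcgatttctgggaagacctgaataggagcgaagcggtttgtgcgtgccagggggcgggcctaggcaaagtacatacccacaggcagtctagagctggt
Tnfrsf13c (chr15:82224381-82224630, - strand): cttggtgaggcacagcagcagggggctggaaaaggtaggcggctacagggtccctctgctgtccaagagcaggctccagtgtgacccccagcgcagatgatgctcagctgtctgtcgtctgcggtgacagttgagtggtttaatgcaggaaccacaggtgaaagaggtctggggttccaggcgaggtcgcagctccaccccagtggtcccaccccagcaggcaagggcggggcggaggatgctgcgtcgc
Tnfrsf21 (chr17:43016305-43016554, + strand): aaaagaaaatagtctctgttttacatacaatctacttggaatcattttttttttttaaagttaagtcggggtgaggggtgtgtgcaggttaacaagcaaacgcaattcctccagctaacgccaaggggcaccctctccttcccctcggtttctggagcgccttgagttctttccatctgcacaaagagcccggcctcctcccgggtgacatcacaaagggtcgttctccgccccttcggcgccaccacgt

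A RefSeq promoter was given for 30 of the 40 members. The NF-κB motif was found before 1 of them, Ltb, against 1.21% of all 32851 promoters of the same length. It lay 77 bases before the RefSeq start, a distance that includes the 68 bases left off above. The E-box was found before 5 members, Fas, Ltbr, Tnfrsf19, Tnfrsf4 and Tnfrsf8, against 6.02% of all promoters. No match says only that these letters are not in the window.

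More family members were called higher in lymphomas than lower, and most of those called higher had passed the filter only there. A gene was called where edgeR's quasi-likelihood test gave a Benjamini-Hochberg adjusted p (FDR) under 0.05 and the fold change exceeded 2-fold, a log2 fold change beyond 1. Between wild-type tumors, 15 members were called higher in EμMyc, where 18.3% of all genes tested were called higher, and 2 were called lower, where 27.8% were. Between Casp2-/- tumors, 19 members were called higher in EμMyc/Casp2-/- tumors (19.7% of all genes) and 1 lower (26.6%). These comparisons share no tumor. In both of them 14 members were called higher (15.2% of all genes) and 1, Tnfrsf21, lower (23.6%). The median log2 fold change of the 29 members was 1.44 between wild-type and 2.22 between Casp2-/- tumors, beside -0.04 and -0.05 for all genes tested. The filter bears on these medians as on the counts, since 15 of the 29 passed only through the lymphomas. Both are given as descriptions. Among the other 14 members, the wild-type comparison called Tnfrsf1b and Tnfrsf4 higher in lymphomas and Tnfrsf21 and Tnfrsf25 lower. That of Casp2-/- tumors called Tnfrsf1a, Tnfrsf1b, Tnfrsf10b and Ltbr higher and Tnfrsf21 lower. Markers of other cell types differed as well. Of 12 T cell markers, which summed to 23.3 to 73.2 CPM in neuroblastomas, 10 were called higher in lymphomas between wild-type and 11 between Casp2-/- tumors (median log2 fold changes 3.97 and 7.22). Of 10 endothelial and stromal markers, 5 and 6 were called higher (1.13 and 1.62), and of 9 macrophage markers 1 and 2 (0.09 and 0.65), and none of the 3 lists held a gene called lower. Their part in the members' differences was not tested. In these bulk tumors, a lower share of cells of a type and less RNA per cell cannot be told apart.

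**Figure D2:**
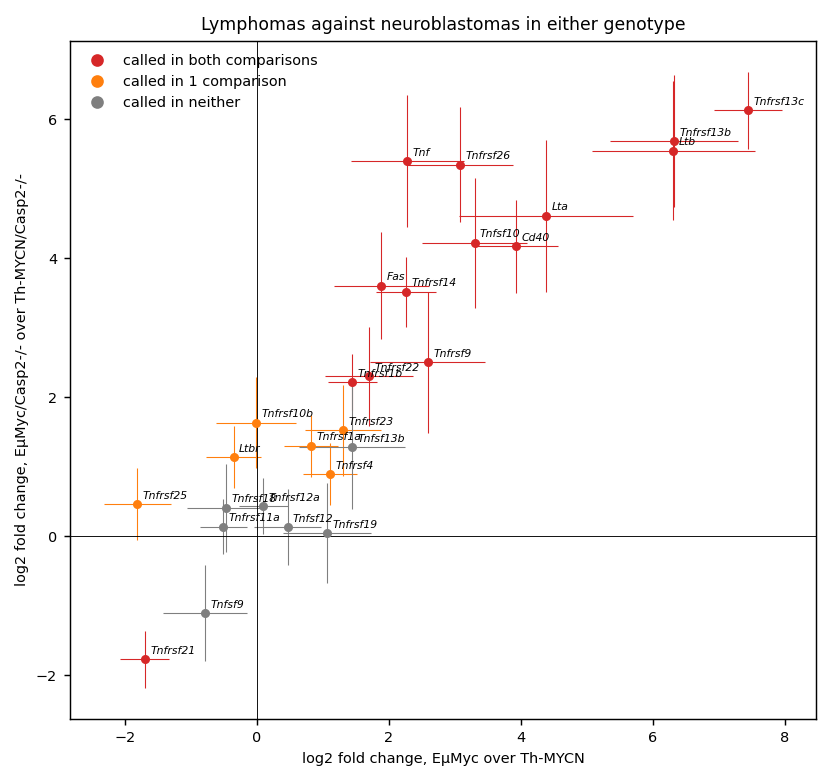
Log2 fold change of lymphomas over neuroblastomas in wild-type tumors (x axis) and Casp2-/- tumors (y axis) for 27 of the 29 members tested, with bars showing the SE. Points to the upper right were higher in lymphomas in both genotypes, Tnfrsf21 alone was called lower in both, and Tnfsf11 and Tnfsf14 were left out because 1 group held 0 to 3 reads.

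Among the death receptors, Tnfrsf21 (DR6, ENSMUSG00000023915, chr17:43016555-43089189), a death domain receptor known from neurons and lymphocytes, was the family member with the highest level per transcript length in neuroblastomas. It measured 77.3, 91.8, 75.6 and 89.7 CPM in Th-MYCN, and 91.3, 79.3, 72.9 and 80.6 CPM in Th-MYCN/Casp2-/- tumors. In lymphomas it measured 23.8, 51.0, 19.4 and 8.49 CPM in EμMyc, and 14.8, 32.2 and 23.4 CPM in EμMyc/Casp2-/- tumors. Every neuroblastoma lay above every lymphoma. The log2 fold change of lymphomas over neuroblastomas was -1.70 ± 0.37 (SE, FDR 0.0013) in wild-type and -1.78 ± 0.41 (FDR 0.0023) in Casp2-/- tumors. Per kilobase of exon, Tnfrsf21 averaged 22.7 ± 2.08 CPM (SD, n = 8) in neuroblastomas, and the next member, Tnfrsf1a, 5.17 ± 1.38 CPM, with no overlap between them.

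Fas, whose ligand triggers apoptosis in lymphocytes, went the other way. It measured 2.19, 2.65, 2.05 and 8.07 CPM in EμMyc, and 24.2, 6.68 and 1.21 CPM in EμMyc/Casp2-/- tumors. In neuroblastomas it lay between 0.577 and 1.48 CPM in every tumor. The wild-type groups did not overlap (log2 fold change 1.89 ± 0.71, FDR 0.035), nor did the Casp2-/- groups (3.61 ± 0.77, FDR 0.0012), although the wild-type call was lost on leaving out EuMyc835 (1.19, FDR 0.16), MYCN235 (1.71, FDR 0.088) or MYCN332 (1.70, FDR 0.089). Without EuMycC2ko215, the difference between Casp2-/- tumors was 2.25 and still called.

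Tnfrsf1a (TNFR1), the main receptor for soluble TNF, was present in every tumor, at 18.2, 39.9, 16.8 and 13.4 CPM in EμMyc and 39.3, 23.0 and 10.4 CPM in EμMyc/Casp2-/- tumors. It measured 13.6, 10.6, 12.4 and 13.5 CPM in Th-MYCN, and 7.71, 7.13, 9.06 and 15.3 CPM in Th-MYCN/Casp2-/- tumors. The ranges overlapped in both comparisons, and Tnfrsf1a passed only between Casp2-/- tumors (1.30 ± 0.44, FDR 0.019), a call kept in 11 of 14 alternative fits. Without EuMycC2ko215 the difference was 0.84 (FDR 0.12). Tnfrsf10b, the mouse receptor for TRAIL, was low in both tumor types, at 0.700, 3.76, 2.36 and 1.59 CPM in EμMyc, 3.71, 5.93 and 1.21 CPM in EμMyc/Casp2-/-, 1.59, 3.49, 0.866 and 2.59 CPM in Th-MYCN, and 0.720, 1.16, 1.16 and 1.62 CPM in Th-MYCN/Casp2-/- tumors. All groups overlapped between tumor types. It was called between Casp2-/- tumors (1.63 ± 0.66, FDR 0.042), a call kept in 8 of 14 alternative fits, and its difference between wild-type tumors was -0.01 ± 0.60.

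Tnfrsf25 (DR3), a receptor mainly of T cells, was the remaining death receptor. It measured 0.175, 0.684, 0.472 and 0.425 CPM in EμMyc, below all 4 Th-MYCN tumors at 1.16, 1.38, 2.42 and 1.30 CPM (log2 fold change -1.81 ± 0.51, FDR 0.0064). In EμMyc/Casp2-/- tumors it measured 2.73, 1.92 and 1.31 CPM and in Th-MYCN/Casp2-/- tumors 0.864, 1.80, 1.74 and 1.30 CPM, which overlapped (0.46 ± 0.52, FDR 0.46). The test of the difference between these comparisons, which is the interaction of genotype and tumor type, gave 2.27 ± 0.73 on the log2 scale with an FDR of 0.43, so they were not shown to differ.

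**Figure D3:**
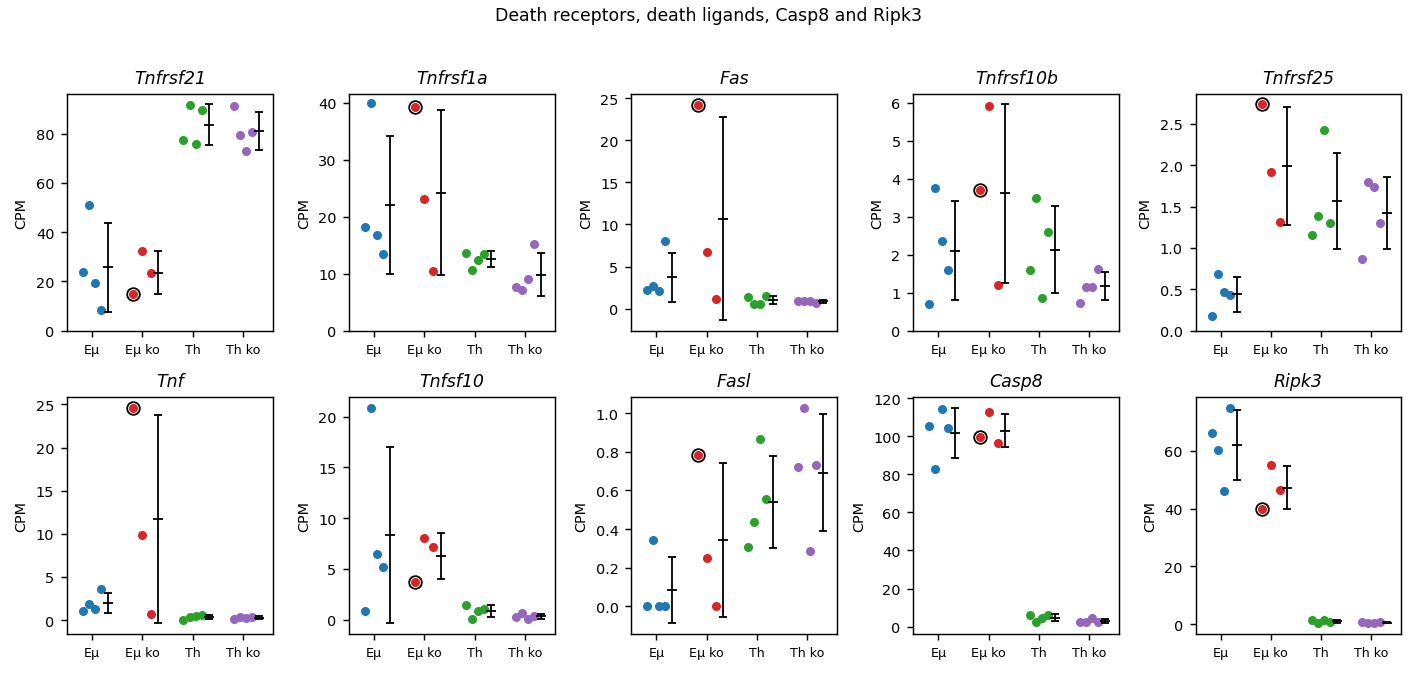
CPM of the 5 death receptors, 3 death ligands, Casp8 and Ripk3 in every tumor (points), with the mean and SD of each group (black), for EμMyc (Eμ), EμMyc/Casp2-/- (Eμ ko), Th-MYCN (Th) and Th-MYCN/Casp2-/- (Th ko) tumors. The circled point is EuMycC2ko215, Tnfrsf21 was higher in every neuroblastoma than in every lymphoma, and Casp8 and Ripk3 were lower in all 8 neuroblastomas (2.31 to 6.30 and 0.450 to 1.62 CPM) than in every lymphoma.

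The death ligands were scarce in neuroblastomas. Tnf measured 1.05, 1.88, 1.26 and 3.61 CPM in EμMyc, and 24.6, 9.85 and 0.707 CPM in EμMyc/Casp2-/- tumors. It measured at most 0.618 CPM in any neuroblastoma, below every lymphoma. The log2 fold change was 2.28 ± 0.85 (FDR 0.032) between wild-type and 5.40 ± 0.95 (FDR 0.00026) between Casp2-/- tumors. The wild-type call was kept in 11 of 15 alternative fits. Without EuMycC2ko215, the difference of Tnf between Casp2-/- tumors was 4.33 and still called. Tnfsf10 (TRAIL) measured 0.875, 20.9, 6.46 and 5.20 CPM in EμMyc and 3.71, 8.01 and 7.17 CPM in EμMyc/Casp2-/- tumors, against 1.40, 0.0726, 0.808 and 1.05 CPM in Th-MYCN and 0.216, 0.643, 0.0964 and 0.325 CPM in Th-MYCN/Casp2-/- tumors. EuMyc614 lay within the range of the Th-MYCN tumors, and TRAIL was called in both comparisons (3.30 ± 0.80, FDR 0.0036, and 4.22 ± 0.94, FDR 0.0014).

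Fasl, the ligand of Fas, was too low to test. It had between 3 and 16 reads in each of the 8 neuroblastomas, and 0 reads in 4 of 7 lymphomas with at most 4 reads in the others. Scaled to library size, it lay between 0.289 and 1.03 CPM in neuroblastomas. The highest EμMyc tumor (0.342 CPM) and the highest EμMyc/Casp2-/- tumor (0.781 CPM) lay within that range. With no filter on low counts, its log2 fold change was -2.50 ± 1.18 (FDR 0.069) between wild-type and -1.18 ± 1.11 (FDR 0.41) between Casp2-/- tumors, and neither was called. Tnfsf15 (TL1A), the ligand of DR3, reached 18 reads in EuMyc829 and at most 9 reads in any other tumor. With no filter it was called higher in lymphomas between Casp2-/- tumors (3.97 ± 1.95, FDR 0.032) and not between wild-type tumors (2.06 ± 1.17, FDR 0.14). The same fit called Tnfsf18 and Tnfsf8 in both comparisons and Cd40lg between wild-type tumors, all higher in lymphomas. These calls rest on few reads: between Casp2-/- tumors, Tnfsf15 had 14 against 1, Tnfsf18 13 against 1 and Tnfsf8 23 against 2 reads. Between wild-type tumors, Tnfsf18 had 48 against 9, Tnfsf8 44 against 9 and Cd40lg 7 against 0 reads. The share of all genes that this fit called is not given here, so the calls are descriptions.

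Several intracellular partners of the death receptors were also higher in lymphomas. Of 10 genes in the death receptor signaling list, 6 were called higher in lymphomas and none lower in either comparison, beside 18.3% and 19.7% of all genes called higher and 27.8% and 26.6% lower. The list's median log2 fold changes were 1.34 and 1.81, and those of all genes -0.04 and -0.05. The list was chosen with earlier results of these data known. Whether any of its genes passed the filter only through the lymphomas was not examined, and any that did had to differ. Its counts and medians are therefore descriptions. Casp8, the initiator caspase of the death receptor complex, measured 105, 82.8, 114 and 104 CPM in EμMyc and 99.6, 113 and 96.3 CPM in EμMyc/Casp2-/- tumors. In neuroblastomas it lay between 2.31 and 6.30 CPM. The log2 fold changes were 4.39 ± 0.26 (FDR 7.5e-09) and 5.06 ± 0.29 (FDR 5.3e-09). Ripk3, the kinase of necroptosis, lay between 40.0 and 75.0 CPM in lymphomas and between 0.450 and 1.62 CPM in neuroblastomas (5.79 ± 0.31 and 6.28 ± 0.36). Cflar (c-FLIP), which restrains caspase-8, lay between 36.3 and 62.9 CPM in lymphomas and between 9.02 and 13.2 CPM in neuroblastomas (1.95 ± 0.20 and 2.18 ± 0.22). For these 3 genes every lymphoma lay above every neuroblastoma. The adaptor Fadd was not called in either comparison (0.26 ± 0.22 and 0.56 ± 0.24).

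The BAFF and APRIL axis, which sustains mature B cells, held the member with the largest difference. Tnfrsf13c (BAFF receptor, ENSMUSG00000068105, chr15:82221743-82224369) measured 76.5, 207, 36.6 and 248 CPM in EμMyc, and 41.4, 76.5 and 63.4 CPM in EμMyc/Casp2-/- tumors. It lay between 0.406 and 1.15 CPM in all neuroblastomas. The log2 fold changes were 7.45 ± 0.52 (FDR 4.9e-08) and 6.13 ± 0.56 (FDR 4.2e-07). It had the highest level per transcript length of all members in lymphomas, 52.3 ± 41.3 CPM per kilobase (SD, n = 7), with a spread so wide that its range, 17.9 to 121, overlapped that of the next member, Ltb, 1.11 to 58.4.

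Tnfrsf13b (TACI), another receptor of BAFF, measured 9.97, 7.70, 10.1 and 10.6 CPM in EμMyc and 2.15, 12.5 and 15.2 CPM in EμMyc/Casp2-/- tumors, and at most 0.386 CPM in neuroblastomas. Both comparisons called it (6.32 ± 0.96 and 5.69 ± 0.95, FDR 4.6e-05 and 0.00012). Only 35.6% of its reads on either strand fell in the column used, against 48.8% to 49.3% over all genes of a tumor. The ligand Tnfsf13b (BAFF) was low in both tumor types, at 1.22 to 5.73 CPM in EμMyc and 0.672 to 1.98 CPM in Th-MYCN tumors, and was not called (1.44 ± 0.80, FDR 0.14, and 1.28 ± 0.89, FDR 0.22). Tnfrsf17 (BCMA), the plasma cell receptor, had at most 6 reads in any tumor, and Tnfsf13 (APRIL), which adjoins Tnfsf12 on chromosome 11 and may share reads with it, at most 11.

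The lymphotoxin genes Ltb and Lta flank Tnf on chromosome 17 (chr17:35194439-35205351) and were higher in lymphomas, as Tnf was. Ltb, the membrane anchor of the lymphotoxin heterotrimer, measured 1.31, 5.73, 4.33 and 31.96 CPM in EμMyc, and 68.8, 41.5 and 7.57 CPM in EμMyc/Casp2-/- tumors. It lay at or below 0.406 CPM in 7 neuroblastomas and at 2.38 CPM in MYCNC2ko144. The log2 fold changes were 6.31 ± 1.23 (FDR 0.00032) and 5.55 ± 1.01 (FDR 0.00049). Lta, its partner chain, measured 0.262, 0.171, 0.630 and 4.99 CPM in EμMyc and 11.5, 4.67 and 3.23 CPM in EμMyc/Casp2-/- tumors, and at most 0.578 CPM in neuroblastomas (4.38 ± 1.32, FDR 0.0049, and 4.61 ± 1.10, FDR 0.0023). Its reads lay at or below the floor of 3 in EuMyc614, EuMyc743b and all 4 Th-MYCN tumors. EuMyc835 held 47 of the 60 reads in EμMyc tumors. The highest lymphoma for Tnf, Lta and Ltb alike was EuMycC2ko215. Without it the differences between Casp2-/- tumors were 4.96 for Ltb and 3.99 for Lta, both still called. The highest wild-type lymphoma was EuMyc835, without which the calls of Tnf (1.81, FDR 0.096) and Lta (2.36, FDR 0.051) were lost between wild-type tumors.

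Among the receptors, Ltbr, which binds lymphotoxin heterotrimers and LIGHT and is known mainly from stromal and myeloid cells, lay between 5.15 and 23.1 CPM in lymphomas and between 4.47 and 11.1 CPM in neuroblastomas. It was not called between wild-type tumors (-0.35 ± 0.42), and its call between Casp2-/- tumors (1.14 ± 0.45, FDR 0.040) was kept in 9 of 14 alternative fits, with the lowest value without EuMycC2ko215 (0.50, FDR 0.32). That tumor also had the highest summed macrophage markers, and their part in the result was not tested. Tnfrsf1b (TNFR2), the other TNF receptor, measured 28.9, 43.1, 18.2 and 18.1 CPM in EμMyc and 43.8, 42.6 and 17.4 CPM in EμMyc/Casp2-/- tumors, above all neuroblastomas at 4.54 to 13.2 CPM (1.45 ± 0.37, FDR 0.0036, and 2.22 ± 0.40, FDR 0.00024). Tnfrsf14 (HVEM) lay between 3.85 and 10.4 CPM in lymphomas and between 0.289 and 1.54 CPM in neuroblastomas (2.26 ± 0.45 and 3.52 ± 0.51). Its ligand Tnfsf14 (LIGHT) was not called between wild-type tumors (1.41 ± 1.15, FDR 0.29), whose ranges overlapped. It had 41 reads in EμMyc/Casp2-/- and 1 read in Th-MYCN/Casp2-/- tumors in all, a ratio of 79.1 after scaling to library size, with a 95% exact binomial counting interval of 13.4 to 3201.

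**Figure D4:**
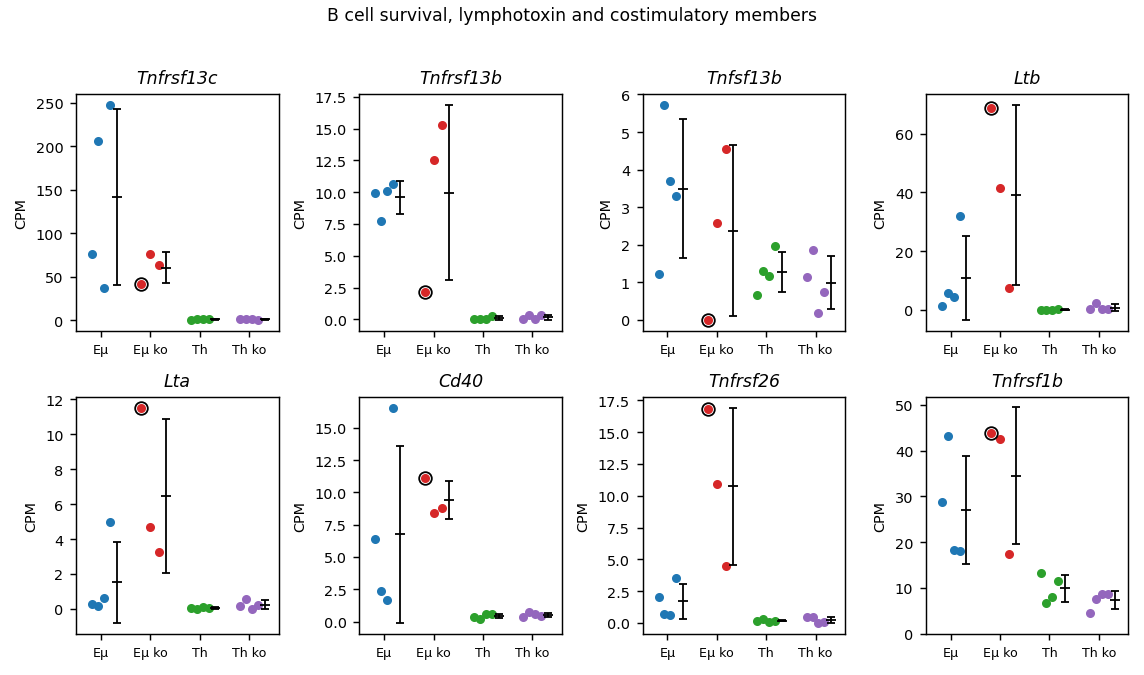
CPM of 8 members in every tumor (points), with the mean and SD of each group (black) and EuMycC2ko215 circled. They are Tnfrsf26 and members of the BAFF, lymphotoxin and costimulatory groups. All 8 were higher on average in lymphomas than in neuroblastomas, and Ltb, Lta and Tnfrsf26 reached their highest value in EuMycC2ko215.

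Of the costimulatory genes, 4 of 5 receptors but 1 of 6 ligands were high enough to test. Cd40, which drives B cell activation, measured 6.39, 2.40, 1.65 and 16.6 CPM in EμMyc and 11.1, 8.43 and 8.78 CPM in EμMyc/Casp2-/- tumors, and between 0.218 and 0.707 CPM in neuroblastomas (3.93 ± 0.63, FDR 0.00013, and 4.17 ± 0.68, FDR 0.00012). Tnfrsf9 (4-1BB) measured 3.15, 4.62, 1.57 and 4.03 CPM in EμMyc and 0, 2.92 and 2.22 CPM in EμMyc/Casp2-/- tumors, and at most 0.944 CPM in neuroblastomas. It was 0 in EuMycC2ko215, and both comparisons called it (2.59 ± 0.87 and 2.50 ± 1.01), the latter in 8 of 14 alternative fits. Tnfrsf4 (OX40) lay between 3.70 and 5.96 CPM in lymphomas and between 1.16 and 3.30 CPM in neuroblastomas, did not overlap in either comparison, and was called between wild-type tumors (1.11 ± 0.41, FDR 0.029), in 12 of 15 alternative fits, and not between Casp2-/- tumors (0.89 ± 0.44, FDR 0.093). Tnfrsf18 (GITR) and the ligand Tnfsf9 (4-1BBL) were not called in either comparison, and Tnfsf9 averaged more in neuroblastomas, 2.68 ± 1.09 CPM in Th-MYCN against 1.56 ± 1.02 CPM in EμMyc (SD, n = 4 each).

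Of the RANK and TWEAK axis, Tnfrsf11a (RANK), Tnfrsf12a (Fn14) and Tnfsf12 (TWEAK) exceeded 1 CPM in all 15 tumors and were not called between tumor types. Tnfsf11 (RANKL) was 0 in 1 EμMyc and 1 EμMyc/Casp2-/- tumor, reached 4.26 CPM in EuMycC2ko239, and had 0 reads in all Th-MYCN tumors. Reads pooled over each group, 32 in EμMyc and 0 in Th-MYCN tumors, gave a ratio of 15.0 after scaling to library size. The 0 reads were replaced by the 3 reads that they allow over the whole group. This ratio holds counting error of the 0 reads only and no spread between tumors, and the groups' ranges overlapped. The mouse decoy receptors Tnfrsf22 and Tnfrsf23 and their neighbor Tnfrsf26 are paralogs side by side on chromosome 7, so reads may be shared among them. Tnfrsf26 measured 2.01, 0.684, 0.630 and 3.50 CPM in EμMyc and 16.8, 10.9 and 4.44 CPM in EμMyc/Casp2-/- tumors, and at most 0.450 CPM in neuroblastomas (3.08 ± 0.80, FDR 0.0037, and 5.35 ± 0.83, FDR 8.2e-05). Without EuMycC2ko215, its difference between Casp2-/- tumors was 4.94 and still called. Tnfrsf22 was called in both comparisons (1.70 ± 0.66 and 2.31 ± 0.71), the first in 8 of 15 alternative fits, and Tnfrsf23 in that of Casp2-/- tumors alone (1.52 ± 0.65, FDR 0.049), in 4 of 14. Tnfrsf19 (TROY), an orphan receptor, varied from 4.64 to 66.1 CPM among EμMyc tumors and was not called.

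Ligand and receptor levels were set side by side for 23 textbook pairs, with a gene counted as present above 1 CPM. Ltb with Ltbr, and Tnfsf12 with Tnfrsf12a, were both present in all 7 lymphomas. Tnf with either of its receptors, Tnfsf10 with Tnfrsf10b, and Tnfsf13b with Tnfrsf13c or Tnfrsf13b were both present in 6 lymphomas. In neuroblastomas only Tnfsf12 with Tnfrsf12a was present in all 8 tumors, and Tnfsf10 with Tnfrsf10b followed with 2 tumors. Tnfrsf1a and Tnfrsf1b were present in all 8 neuroblastomas and Tnf in none of them. Fasl with Fas was present in no tumor.

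Of 19 genes in the TRAF and NF-κB list, through which the receptors signal, 12 were called higher in lymphomas between wild-type tumors (18.3% of all genes) and 13 between Casp2-/- tumors (19.7%). None was called lower (27.8% and 26.6% of all genes), and 7 and 6 were not called. As for the death receptor signaling list, the side on which these genes passed the filter was not examined. These counts are descriptions as well. Traf5, an adaptor of several family receptors, lay between 4.10 and 46.7 CPM in lymphomas and at most 1.36 CPM in neuroblastomas (5.08 ± 0.75 and 5.70 ± 0.90). Birc3, an inhibitor of apoptosis bound to TRAF2, lay between 31.8 and 82.0 CPM and between 1.30 and 3.52 CPM (4.76 ± 0.36 and 4.59 ± 0.40). Rel, the NF-κB subunit typical of lymphocytes, lay between 5.69 and 14.9 CPM in 6 lymphomas but at 0.195 CPM in EuMycC2ko215, and at most 1.15 CPM in neuroblastomas (3.91 ± 0.78 and 3.75 ± 0.85).

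Casp2-/- and wild-type tumors were then compared within each tumor type. In lymphomas their onsets did not overlap, at 8 to 12 weeks in EμMyc/Casp2-/- and 13 to 19 weeks in EμMyc tumors. Genotype and onset cannot be told apart there. In neuroblastomas, edgeR's quasi-likelihood test called 0 of 29 members for loss of Casp2, where it called 5 of 14880 genes (0.0336%). The likelihood ratio test called 0 members as well (0.813% of all genes), as did DESeq2. At an unadjusted p under 0.05, 2 members passed, Tnfrsf11a and Ltb (6.77% of all genes), and the same 2 were the members whose groups did not overlap (6.62% of all genes). Tnfrsf11a (RANK), whose signaling is best known from osteoclasts and mammary and lymph node development, measured 8.00, 6.03, 7.04 and 5.68 CPM in Th-MYCN and 2.38, 3.08, 2.70 and 3.74 CPM in Th-MYCN/Casp2-/- tumors. Its log2 fold change was -1.17 ± 0.36 with an unadjusted p of 0.0055 and an FDR of 0.37. Ltb lay between 0.0611 and 0.185 CPM in Th-MYCN and at 0.216, 2.38, 0.193 and 0.406 CPM in Th-MYCN/Casp2-/- tumors, at or below 3 reads in 6 of the 8 libraries (2.62 ± 1.29, FDR 0.72), and without MYCNC2ko144 the difference was 1.06.

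The other members with the smallest p in neuroblastomas were Tnfrsf14 (-0.96 ± 0.48, FDR 0.79), Tnfrsf12a (-0.67 ± 0.37, FDR 0.83) and Tnfsf14, which had 1 read in Th-MYCN/Casp2-/- and 14 reads in Th-MYCN tumors. A single Th-MYCN tumor held 10 of those 14 reads of Tnfsf14. Tnfrsf12a measured 2.50, 6.68, 6.35 and 6.42 CPM in Th-MYCN and 2.52, 3.28, 4.53 and 3.49 CPM in Th-MYCN/Casp2-/- tumors, with MYCN175 apart from the other wild-type tumors. Tnfrsf14 measured 0.916, 0.944, 0.981 and 1.54 CPM, and 0.504, 0.386, 0.289 and 1.06 CPM. The 5 death receptors had log2 fold changes between -0.87 and -0.05, none called, and Tnfrsf21 differed by -0.05 ± 0.37.

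In lymphomas, edgeR's quasi-likelihood test also called 0 of 29 members between EμMyc/Casp2-/- and EμMyc tumors, where it called 21 of 14880 genes (0.141%). At an unadjusted p under 0.05, 4 members passed: Tnfrsf25, Tnfrsf26, Tnf and Tnfrsf13c (8.53% of all genes). The likelihood ratio test called 2 of these, Tnfrsf25 and Tnfrsf26, both higher in EμMyc/Casp2-/- tumors, where it called 1.44% of all genes. DESeq2 called the same 2 members. They were also the only members whose groups did not overlap (3.7% of all genes).

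Tnfrsf25 (DR3) lay between 0.175 and 0.684 CPM in EμMyc, at 2 to 8 reads per tumor, and between 1.31 and 2.73 CPM in EμMyc/Casp2-/- tumors. The difference was 2.13 ± 0.55 on the log2 scale, with FDR values of 0.17 by the quasi-likelihood and 0.020 by the likelihood ratio test. Tnfrsf26, described above, gave 2.65 ± 0.74 with 0.23 and 0.032. Tnf gave 2.58 ± 0.85 (FDR 0.34): EuMycC2ko215 and EuMycC2ko239 lay above all 4 EμMyc tumors and EuMycC2ko245 below them. Tnfrsf13c was the member with a small p that was lower in EμMyc/Casp2-/- tumors (-1.23 ± 0.47, FDR 0.46), and its ranges overlapped. Lta, next by p, gave 2.1 ± 0.99 (FDR 0.59).

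Several of these differences moved with EuMycC2ko215, whose T cell markers summed to 1971 CPM and whose Tnf, Fas, Lta, Ltb, Tnfrsf25 and Tnfrsf26 values were the highest of all lymphomas. All 12 T cell markers had a positive log2 fold change in EμMyc/Casp2-/- over EμMyc tumors (median 3.03), of which the quasi-likelihood test called 0 and the likelihood ratio test 5, and EuMycC2ko239 (345 CPM) also lay above every EμMyc tumor. Their part in the result was not tested. Without EuMycC2ko215 the log2 fold changes were 1.88 for Tnfrsf25, 2.19 for Tnfrsf26, 1.46 for Tnf and 1.42 for Lta. The T cell costimulatory receptor Cd27, a family member outside the symbol rule, measured 66.8 CPM in EuMycC2ko215 and between 0.875 and 3.42 CPM in the other lymphomas. Of the 5 tested family genes listed outside the rule, only Cd27 was called for genotype in lymphomas, by the likelihood ratio test alone (FDR 0.041). Between tumor types this list went both ways. Cd27 and Relt were called higher in lymphomas and Eda lower in both comparisons, and Eda2r lower between wild-type tumors.

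**Figure D5:**
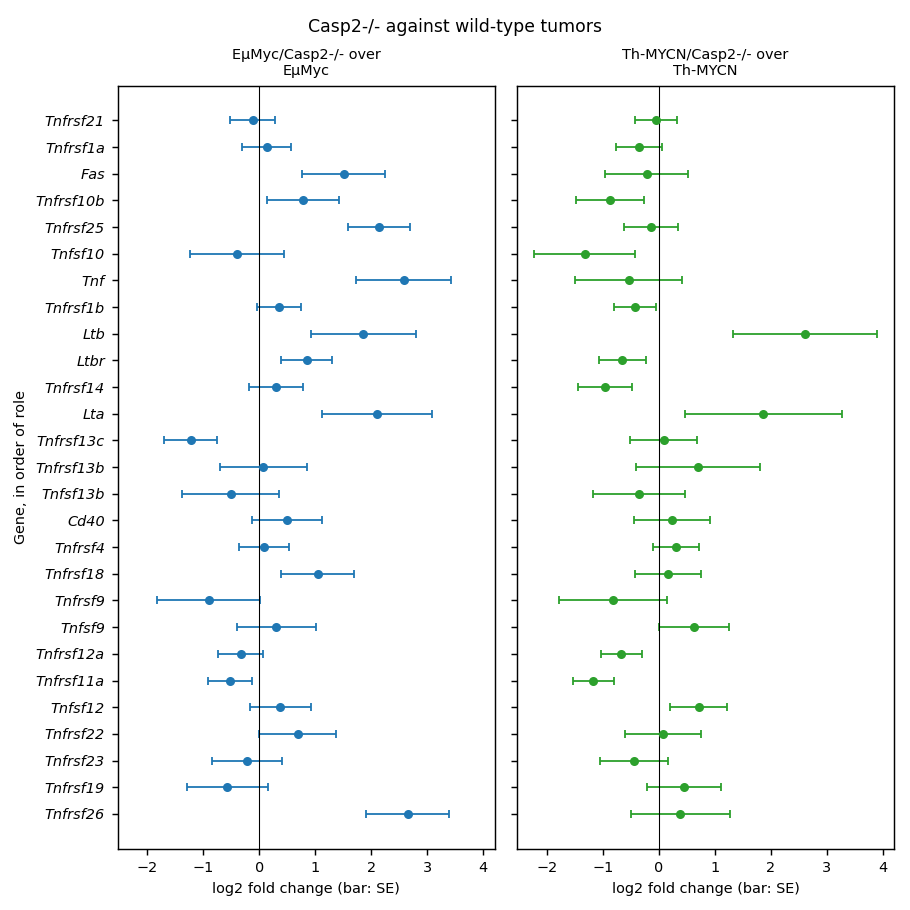
Log2 fold change of Casp2-/- over wild-type tumors (points) with SE (bars) for 27 of the 29 members tested, in lymphomas (left) and neuroblastomas (right). No member was called by the quasi-likelihood test in either tumor type, and the largest values in lymphomas were those of Tnfrsf26, Tnf and Tnfrsf25. Tnfsf11 and Tnfsf14 were left out because 1 group held 0 to 3 reads.

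The interaction of genotype and tumor type asks whether loss of Casp2 went with different changes in lymphomas and neuroblastomas. The quasi-likelihood test called 0 members of 29 (0.0538% of all genes), as did the likelihood ratio test (0.914% of all genes) and DESeq2. At an unadjusted p under 0.05, 4 members passed, Tnfrsf25, Tnf, Ltbr and Tnfsf14 (7.57% of all genes). The genotype differences of Tnf were 2.58 in lymphomas and -0.54 in neuroblastomas (interaction 3.12 ± 1.28, FDR 0.60), and those of Ltbr 0.84 and -0.65 (1.49 ± 0.61, FDR 0.60). In the 10 death receptor signaling genes and the 19 TRAF and NF-κB genes, neither genotype comparison nor the interaction called any gene by either edgeR test, and the median log2 fold changes lay between -0.08 and 0.10 in the genotype comparisons.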

How the data were processed

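Poly(A) RNA of 15 tumors was sequenced as single-end 50-base reads. Per the labels, the authors checked the reads with FastQC, aligned them with STAR to mm10 (GRCm38) and deposited raw counts of reads per gene, for both strands together and for each strand. Versions and the gene annotation are not given in the sources used here. The second-strand column was used, as in the study, and its rows that name no gene (unmapped, multimapped, ambiguous or outside genes), 66.4% to 71.8% of the column's total per tumor, were left out. A further EμMyc/Casp2-/- tumor was not analysed here.

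Genes above 1 CPM in at least 3 tumors (14880 of 23329) were fitted with edgeR 4.0.16 (R 4.3.3) as 4 group means after TMM normalization. Calls needed a Benjamini-Hochberg adjusted p (FDR) under 0.05 over all genes and a log2 fold change beyond 1 by the quasi-likelihood test. The script was tested on simulated data. The members and gene lists were chosen with earlier results of these data known. The named members are all death receptors and death ligands, the called members with the highest levels, and the 5 members with the smallest p per genotype comparison; values of further members were chosen after they were seen. The alternatives were the likelihood ratio test, DESeq2 1.42.0, other size factors, filters, strands and samples, onset as a covariate, and leaving out each tumor. Exon lengths and positions were taken from GENCODE M21 (GRCm38). All 21 pairs of replicates differed beyond counting noise. The labels give 1 tumor per mouse.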

Additional observations from a re-analysis of the deposited data

Results flagged for a closer look

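In 82 groups of 4 tumors tested with Dixon's test, 3 values stood apart from the others of their group, where chance flags about 4.1. Tnfrsf12a was the lowest in MYCN175, at 2.50 CPM, against 6.35 to 6.68 CPM in the other Th-MYCN tumors. Tnfrsf14 was the highest in MYCN391, at 1.54 CPM, against 0.916 to 0.981 CPM in the other Th-MYCN tumors. Ltbr was the highest in EuMyc743b, at 11.5 CPM, against 5.59 to 5.86 CPM in the other EμMyc tumors.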

How the results depend on the processing

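The members called between wild-type tumors numbered 17, with 17 to 20 under 7 alternatives and 13 to 17 when 1 tumor was left out, and 11 of the 17 were called in every setting. Between Casp2-/- tumors 20 were called, with 19 to 20 and 15 to 18, and 14 of the 20 were called in every setting. Of the members called in every setting, all but Tnfrsf1b, Tnfrsf21 and Tnfrsf25 had passed the filter only through the lymphomas. These counts are therefore descriptions as well. For loss of Casp2 in neuroblastomas and in the interaction, the count was 0 in every setting run. In EμMyc/Casp2-/- against EμMyc tumors it was 0 by the quasi-likelihood test, 2 by the likelihood ratio test, 2 by DESeq2, and 1 (Tnfrsf26) by the default quasi-likelihood test of edgeR 4, an alternative chosen after seeing the data. When 1 tumor was left out it ranged from 0 to 1: without EuMycC2ko245, Tnf was called (3.14, FDR 0.047). The cause was not tested. Tnfrsf10b, at -0.01 between wild-type tumors, changed sign to 0.034 with the default test of edgeR 4, to 0.31 without EuMyc614, 0.10 without EuMyc835, 0.32 without MYCN235 and 0.10 without MYCN391, and was called in none of them; its range with 1 tumor left out was -0.41 (without EuMyc743b) to 0.32. Of 739 values for single members, 676 kept their direction and side of the threshold, 52 lost a call and 6 gained one. No paired analysis was possible because the labels give only mouse numbers. Groups of 3 or 4 tumors and members near the floor of 3 reads limit what could be detected.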
